A study of Mus musculus with 20 samples.

Results

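The 38 Hox genes of the Hoxa, Hoxb, Hoxc and Hoxd clusters were taken, by gene symbol, from the 33581 genes listed for each library. They comprise 10 Hoxa, 10 Hoxb, 9 Hoxc and 9 Hoxd genes. Each of the 5 days has its own table, and 22 of the 38 had a mean normalised count of 10 or more in one table or several. Those 22 were tested, within the 16497 genes that met the same minimum. Among them are Hoxa2, Hoxa4, Hoxa5, Hoxa6, Hoxa7 and Hoxa10, then Hoxb2, Hoxb3, Hoxb4, Hoxb5, Hoxb6 and Hoxb13, then Hoxc4, Hoxc6, Hoxc9 and Hoxc13, and Hoxd3, Hoxd4, Hoxd8, Hoxd9 and Hoxd10.

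The cells were 3T3-L1, a mouse preadipocyte line that turns into lipid-filled adipocytes after hormonal induction. They carried either a stable lentiviral hairpin that silences Tcf7l2, the TCF family partner of beta-catenin in Wnt signalling, or a scrambled control hairpin. Both populations were puromycin-selected mixtures, infected at low passage, and a thiazolidinedione was not routinely part of the induction. RNA-seq libraries were made at days 0, 2, 4, 6 and 8 of differentiation, with 2 for each of the 10 combinations of day and hairpin, or 20 in all, of 20153362 to 33973608 reads. The comparison asks what silencing Tcf7l2 changes as the cells differentiate. One knockdown hairpin is sampled here, so an effect of the hairpin or vector and loss of Tcf7l2 cannot be told apart. Nothing in the labels says that paired libraries are separate cultures, so the p-values reflect the spread between libraries, and that spread may be technical.

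Hox genes encode homeodomain transcription factors that give cells their position along the body axes. They lie in clusters, in the order in which they are used along the axis, and their pattern is kept in cells grown in culture, held open or silent by trithorax and polycomb proteins. In fat, Hox expression differs between depots and is kept in preadipocytes taken from them. Low paralog numbers belong to the 3' end of a cluster and to anterior positions, high numbers to the 5' end and posterior positions.

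Tcf7l2, the silenced gene, was at 31.8% to 38.9% of its scrambled level over the 5 days, below both scrambled libraries on every day. Its average change was called by limma (adjusted p of at most 2.19e-05 over 30 alternatives). Markers of the adipocyte list summed to 69.9 to 85.4 RPM (reads scaled to library size) in scrambled cells at day 0 and 2242 to 12564 at day 8, and to 783 to 1470 in knockdown cells at day 8. The preadipocyte list summed to 7004 to 32605 RPM over all libraries. Macrophage, endothelial and epithelial markers summed to at most 1.94, 1.28 and 1.33 RPM. Muscle markers summed to 21.6 to 35.8 RPM over all libraries, with 2 of 4 at 0 in every library. Acta1 alone was at 21.5 to 35.7 RPM, and its average change was called higher in knockdown cells (0.18, adjusted p = 0.0467, limma). Library 2 of each of scrambled days 4, 6 and 8 stood apart from its partner, with Adipoq at 907, 2255 and 3307 RPM against 282, 1481 and 900. Knockdown library 2 also held more Adipoq than library 1 on those days, at 258, 589 and 417 RPM against 143, 391 and 248. In bulk RNA a lower share of cells with a given level and less RNA per cell cannot be told apart.

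The promoters of Hoxd8, Hoxd4 and Hoxd10 are shown because the tested Hoxd genes had lower average values in knockdown cells. Hoxd10 met the minimum through scrambled libraries alone, so its lower value adds no support. Each printed promoter is the run of 250 bases before the RefSeq start site (GRCm38.p6, plus strand), while the values themselves came from mm9. Hoxd8 lies at chr2:74704365-74704614, Hoxd4 at chr2:74721728-74721977 and Hoxd10 at chr2:74691641-74691890. Capitals mark matches to the core sequence bound by TCF/LEF factors, searched on both strands as CTTTGNN with A or T at each N.
Hoxd8: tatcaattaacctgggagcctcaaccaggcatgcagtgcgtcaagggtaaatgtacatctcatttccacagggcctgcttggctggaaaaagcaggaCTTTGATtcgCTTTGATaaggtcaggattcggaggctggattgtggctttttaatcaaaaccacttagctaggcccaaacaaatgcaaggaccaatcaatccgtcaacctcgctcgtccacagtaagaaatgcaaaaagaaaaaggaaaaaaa
Hoxd4: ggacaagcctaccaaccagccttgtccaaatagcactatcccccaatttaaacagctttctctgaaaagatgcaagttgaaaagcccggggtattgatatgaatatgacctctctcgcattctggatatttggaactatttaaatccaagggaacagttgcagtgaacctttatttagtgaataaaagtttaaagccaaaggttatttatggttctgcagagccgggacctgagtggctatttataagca
Hoxd10: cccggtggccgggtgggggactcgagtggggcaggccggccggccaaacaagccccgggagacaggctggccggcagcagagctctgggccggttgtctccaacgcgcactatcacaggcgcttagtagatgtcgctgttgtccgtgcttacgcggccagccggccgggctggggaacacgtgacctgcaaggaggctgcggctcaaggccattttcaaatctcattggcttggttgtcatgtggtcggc
The Hoxd8 promoter held CTTTGAT at bases 153 to 147 and again at bases 143 to 137 before the start. No match lay in the windows of Hoxd3, Hoxd4, Hoxd9 and Hoxd10. The Hoxd3 and Hoxd9 windows are not printed, because 66 and 36 of their bases overlap annotated untranslated sequence of the same gene. Of 32851 promoters of this length, 14.8% held a match, 1.43% held at least 2, and 27 (0.0822%) held CTTTGAT at least 2 times. Among 23 promoters of Hox genes in the table, 3 held a match, those of Hoxd8, Hoxd12 and Hoxa11. A match describes the letters only, and whether a factor bound there was not tested.

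Levels per length (RPKM, which is RPM per kilobase of exon in GENCODE vM21) put Hoxd8 first. Its mean over the 20 libraries was 27.3 RPKM, and its reads made up 43.0% of the reads of the 38 genes. Next came Hoxa2 at 8.20, Hoxd9 at 7.25, Hoxa6 at 6.44, Hoxa7 at 6.37, Hoxd3 at 4.42 and Hoxa5 at 4.20 RPKM. Levels of Hoxa4 (2.49), Hoxb4 (1.99) and Hoxc13 (1.36) lay between 1 and 3 RPKM. Another 11 tested genes were below 1 RPKM, from 0.600 for Hoxc6 down to 0.114 for Hoxa10. These levels are not precise for genes whose exons are shared in the annotation. Other genes on the same strand cover 68.6% of the exon bases of Hoxd3, 45.1% of Hoxd4, 15.0% of Hoxa2 and 5.73% of Hoxd10. The labels name a kit that does not mark strand, and antisense genes cover 63.9% of the exon bases of Hoxb3, 58.5% of Hoxb2, 23.3% of Hoxa7, 16.0% of Hoxa4 and 10.7% of Hoxd3. Reads from such overlaps cannot be told apart.

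**Figure D1:**
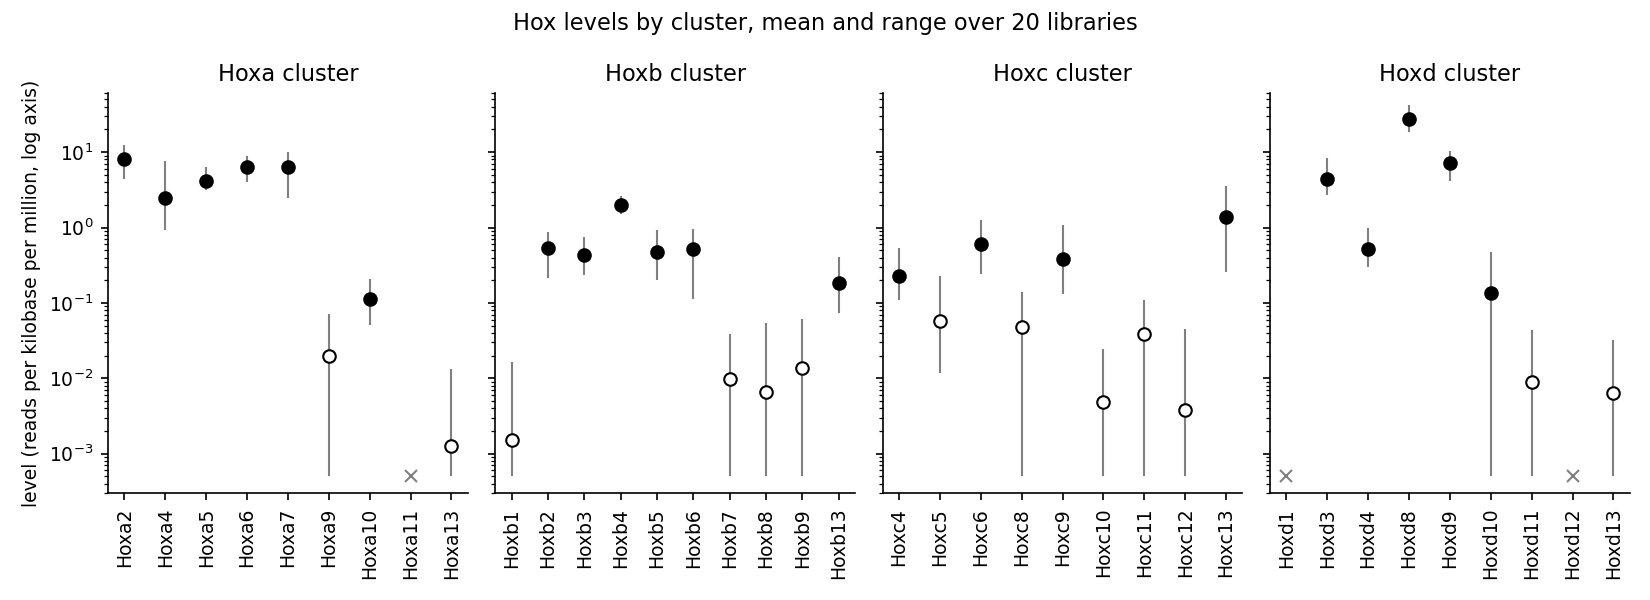
Mean level in RPKM (log axis) of 37 Hox genes by cluster, in order of paralog number, with lines from the lowest to the highest of the 20 libraries (cut at the axis foot where a library has 0 reads). Filled points are 21 tested genes, open points are below the minimum, and crosses mark Hoxa11, Hoxd1 and Hoxd12 with 0 reads; Hoxd8 stands highest at 27.3 RPKM.

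Which end of a cluster was read differed between clusters. In the Hoxa cluster Hoxa2, Hoxa4, Hoxa5, Hoxa6 and Hoxa7 each averaged above 1 RPKM, Hoxa10 reached 0.358 RPM on average, and Hoxa9, Hoxa11 and Hoxa13 fell below the minimum. In the Hoxb cluster Hoxb2 to Hoxb6 were detected and Hoxb7, Hoxb8 and Hoxb9 were not above the minimum, while Hoxb13, the most 5' member, averaged 0.401 RPM. In the Hoxc cluster Hoxc13, also at the 5' end, was the highest at 3.34 RPM, over Hoxc6 at 0.948 and Hoxc9 at 0.917. The Hoxd reads came from Hoxd3, Hoxd4, Hoxd8 and Hoxd9, with Hoxd10 at 0.247 RPM and the 3' gene Hoxd1 without a read.

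Of the 16 genes below the minimum, 3 had no read in any library. Hoxa11, Hoxd1 and Hoxd12 had 0 of 554488548 reads, which allows up to 0.00541 RPM over all libraries (3 counts, counting error only). Another 8 had 1 to 10 reads in all, and 5 had 19 to 91 reads. The highest level of any of them in a single library was 0.658 RPM, in Hoxc5. At the minimum itself, Hoxd10 lay just inside with a highest mean normalised count of 11.3, and Hoxc5 just outside with 7.24. Hoxd10 passed in the day 8 table only.

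In knockdown cells the 5 tested Hoxd genes were called lower, averaged over the days, and few genes of the other clusters were called. Values below 0 were more common than calls: 13 of the 17 tested genes of the Hoxa, Hoxb and Hoxc clusters had a negative change and 4 a positive one. A difference is the knockdown value less the scrambled value on the deposited variance-stabilised log2 scale, given with its standard error (SE) and tested with limma over all 16497 genes at a Benjamini-Hochberg adjusted p of 0.05. These values compress changes in low genes. Over the days 7 of the 22 tested Hox genes were called and all 7 were lower, where 25.4% of all genes tested were called and 13.2% were called lower. All 5 tested Hoxd genes were among them, with 2 of the 17 tested in the Hoxa, Hoxb and Hoxc clusters, Hoxa7 and Hoxb13. Hoxd10 and Hoxb13 met the minimum through scrambled libraries alone, with highest group means of 16.4 and 18.9 counts (scaled over the 20 libraries) there against 6.17 and 9.93 in knockdown cells, so their calls add no support to the count. The median change of the Hoxd genes, -0.27, is the value of Hoxd10 itself and is not taken as support either. Without Hoxd10, the Hoxd changes were -0.56 for Hoxd3, -0.43 for Hoxd8, and -0.22 for both Hoxd9 and Hoxd4. The median was -0.05 for the other 17 Hox genes, Hoxb13 included, and -0.00 for all genes tested. With the replicate number as a block 8 were called.

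Hoxd3, a 3' gene of the cluster, had the lowest average change of the tested Hox genes on the deposited scale, while on recovered reads Hoxd10 was lower (-1.51 against -0.69, limma voom). In scrambled cells it stood, in libraries 1 and 2, at 18.01 and 16.6 RPM on day 0, 15.9 and 11.8 on day 2, 14.4 and 12.3 on day 4, 26.9 and 18.8 on day 6, then 21.96 and 20.8 on day 8. With the Tcf7l2 hairpin it gave 10.6 and 12.9 RPM on day 0, 10.2 and 8.73 on day 2, 11.2 and 8.72 on day 4, 11.97 and 12.5 on day 6, then 10.2 and 12.05 on day 8. Both knockdown libraries were below both scrambled libraries on each of the 5 days, which 2.35% of all genes tested showed. Relative to scrambled cells, knockdown cells retained 52.0% at day 8 and 74.7% at day 4, the lowest and highest of the days. The average change was -0.56 (SE 0.0800, adjusted p = 1.14e-04, limma, 10 libraries per arm), and it held in all 30 alternatives.

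Hoxd8, the most abundant of the cluster, fell by less. Its scrambled libraries held 78.8 and 84.4 RPM on day 0, 63.6 and 100.2 on day 2, 65.8 and 76.6 on day 4, 85.6 and 88.8 on day 6, then 104 and 115 on day 8. Its knockdown libraries held 62.3 and 58.4 RPM on day 0, 50.6 and 75.4 on day 2, 58.4 and 59.3 on day 4, 55.1 and 69.6 on day 6, then 60.9 and 87.4 on day 8. Library 2 of knockdown day 2 was above library 1 of scrambled day 2, and on the other 4 days the groups did not overlap (8.46% of all genes tested were lower without overlap on at least 4 days), at 67.7% to 82.6% of the scrambled level over all days. The average change was -0.43 (SE 0.0950, adjusted p = 0.00417, limma), and it held in all 30 alternatives.

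Hoxd9, its 5' neighbour, read in scrambled cells 21.6 and 18.96 RPM on day 0, 11.4 and 13.9 on day 2, 13.7 and 13.04 on day 4, 17.6 and 16.1 on day 6, then 22.3 and 19.96 on day 8. The knockdown values were 18.05 and 14.8 RPM on day 0, 8.83 and 9.63 on day 2, 11.02 and 11.7 on day 4, 14.5 and 14.9 on day 6, then 16.97 and 20.9 on day 8. The groups overlapped at day 8 only (8.46% of all genes tested were lower without overlap on at least 4 days). The change was smaller than for Hoxd3, at -0.22 (SE 0.0471, adjusted p = 0.00282, limma), and it held in all 30 alternatives.

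Hoxd10 was near the limit of detection throughout. Scrambled libraries gave 0.595 and 0.591 RPM on day 0, 0.258 and 0.0883 on day 2, 0.344 and 0.0947 on day 4, 0.172 and 0.403 on day 6, then 0.852 and 0.366 on day 8. Knockdown libraries gave 0.159 and 0.103 RPM on day 0, 0 and 0.0688 on day 2, 0.04098 and 0.0928 on day 4, 0.0939 and 0.148 on day 6, then 0.192 and 0.272 on day 8, the value of 0 being no read. All knockdown values were below both scrambled values of the same day, which 2.35% of all genes tested showed. At day 4 this was by 0.0928 against 0.0947 RPM. On the log2 scale the change was -0.27 (SE 0.0572, adjusted p = 0.00276, limma), while recovered reads, free of that compression, gave -1.51 (SE 0.314, adjusted p = 0.00236, limma voom). The call held in all 29 alternatives in which Hoxd10 could be tested. Yet Hoxd10 met the minimum through scrambled libraries alone, which favours a lower knockdown value. Neither the call nor the lack of overlap is therefore taken as support.

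Hoxd4, which shares exons with other genes, was at 1.49 and 1.31 RPM on day 0, 1.03 and 1.18 on day 2, 1.204 and 1.26 on day 4, 2.11 and 1.503 on day 6, then 2.52 and 1.97 on day 8 in scrambled cells. Under knockdown it stood at 0.916 and 1.37 RPM on day 0, 0.872 and 0.825 on day 2, 1.15 and 1.02 on day 4, 1.22 and 1.42 on day 6, then 0.767 and 1.27 on day 8. Groups overlapped at day 0 only, against the same share of 8.46% of all genes tested for at least 4 days. The average change was -0.22 (SE 0.0643, adjusted p = 0.0226, limma). This call ended without both scrambled libraries of day 8 (-0.12, adjusted p = 0.128) and when library 2 of each of days 4, 6 and 8 was left out (-0.23, adjusted p = 0.0929).

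**Figure D2:**
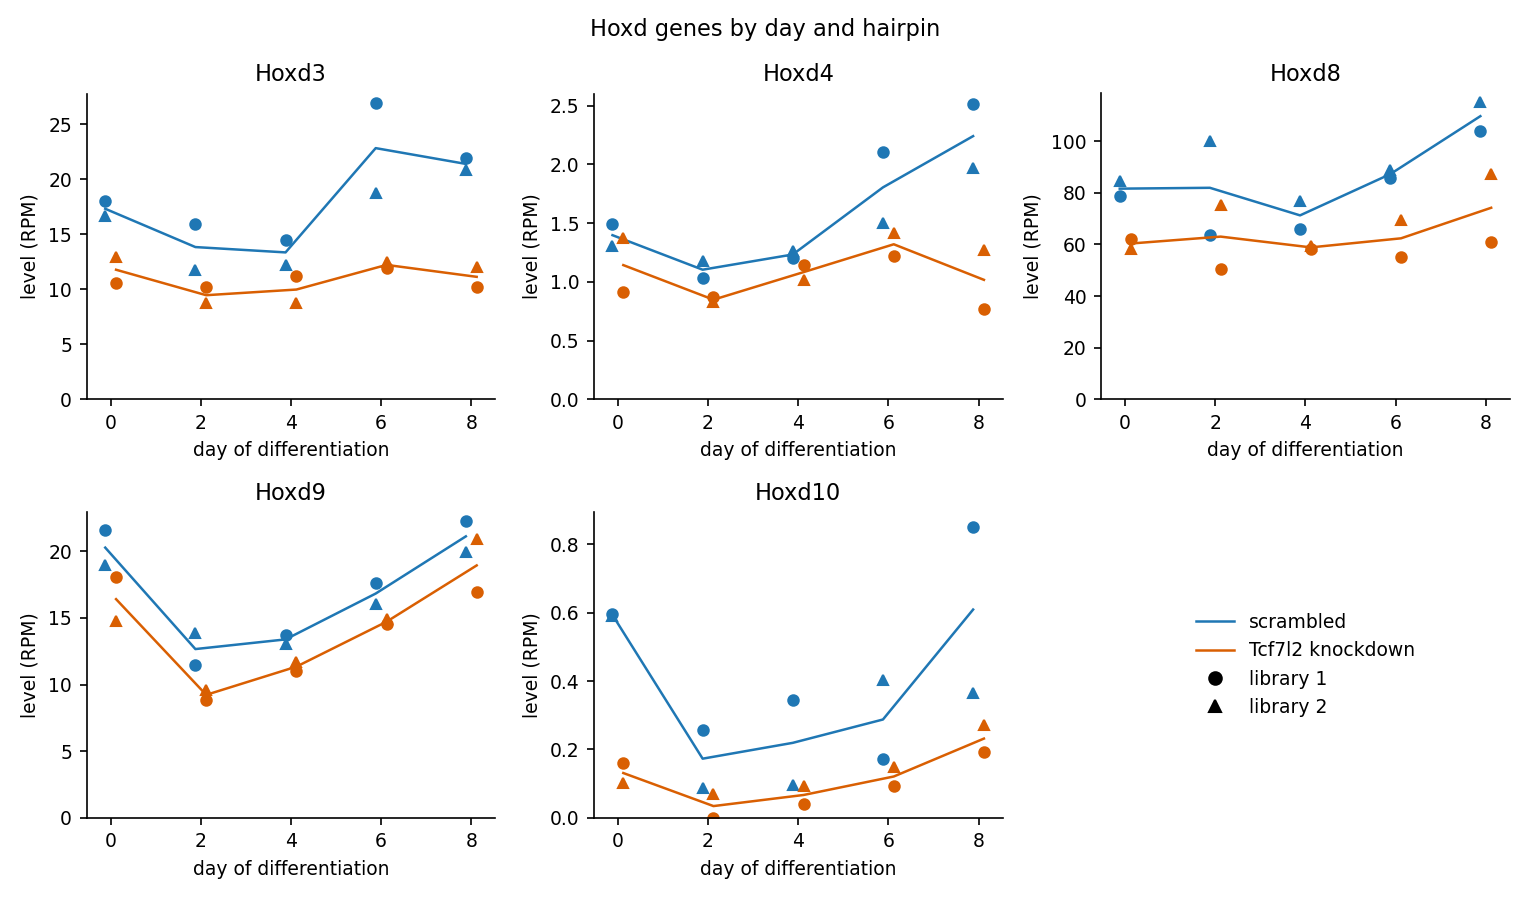
Levels in RPM (y axis, from 0) of 5 Hoxd genes by day of differentiation (x axis), in scrambled (blue) and Tcf7l2 knockdown (orange) cells, with each library as a point and the mean of 2 as a line. Hoxd3 and Hoxd10 are lower without overlap on every day (2.35% of all genes tested were), and Hoxd8 overlaps at day 2 only. Hoxd10 met the minimum through scrambled libraries alone.

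Summed over the cluster, Hoxd was 121 ± 0.959 RPM on day 0 and 109.7 ± 24.7 on day 2 in scrambled cells, then 99.5 ± 5.43, 129 ± 4.83 and 155 ± 4.69 on days 4, 6 and 8 (SD, n = 2). The knockdown sums were 89.8 ± 3.21, 82.6 ± 17.1, 81.3 ± 0.736, 90.7 ± 11.01 and 106 ± 23.2 RPM on the same days (SD, n = 2). The groups overlapped at day 2 alone. The Hoxa sums in scrambled cells were 67.8 ± 4.45, 43.6 ± 2.29, 45.6 ± 3.88, 56.7 ± 1.57 and 62.9 ± 9.93 RPM from day 0 to day 8 (SD, n = 2). In knockdown cells the Hoxa sums were 60.2 ± 6.46, 37.2 ± 0.00770, 43.1 ± 3.52, 51.7 ± 4.32 and 53.2 ± 1.14 RPM (SD, n = 2), below scrambled without overlap at days 2, 6 and 8. The Hoxc sums were lower without overlap at days 0 (11.8 ± 3.12 against 8.74 ± 0.187 RPM; SD, n = 2) and 2 (3.73 ± 0.318 against 2.09 ± 0.248 RPM; SD, n = 2), and overlapped on the later days. For Hoxb the scrambled and knockdown sums were 11.2 ± 0.586 and 11.8 ± 2.93 RPM on day 0, and 10.98 ± 0.963 and 11.3 ± 1.25 RPM on day 8 (SD, n = 2), and they overlapped on both days; at day 2 the knockdown sum was the higher without overlap, 8.57 ± 0.475 against 7.78 ± 0.425 RPM (SD, n = 2). Over all 38 genes the sums were 212 ± 1.71 and 171 ± 6.37 RPM on day 0, and 237 ± 9.09 and 177 ± 26.6 RPM on day 8 (SD, n = 2). No background was computed for sums, so the days without overlap are descriptive only. Single genes carry much of a sum. In scrambled cells at day 0, Hoxd8 made up 81.6 of the 121 RPM of Hoxd, and Hoxc13 made up 7.24 of the 11.8 RPM of Hoxc.

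Hoxa7 and Hoxb13 were the called genes outside the Hoxd cluster. Hoxa7, a mid-cluster gene, was at 20.5 and 24.8 RPM on day 0, 9.54 and 10.2 on day 2, 15.8 and 13.9 on day 4, 16.9 and 17.9 on day 6, then 20.02 and 25.4 on day 8 in scrambled cells. Knockdown cells held 15.9 and 17.6 RPM on day 0, 6.21 and 7.46 on day 2, 11.02 and 14.4 on day 4, 14.7 and 18.4 on day 6, then 17.3 and 19.3 on day 8. At days 4 and 6 the groups overlapped. The share of all genes that were lower without overlap on at least 3 days was not counted. The average change was -0.26 (SE 0.0696, adjusted p = 0.0141, limma) and it held in all 30 alternatives. Hoxb13, posterior in the body plan, ranged from 0.164 to 0.891 RPM.

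In scrambled cells Hoxb13 was at 0.744 and 0.436 RPM on day 0, 0.344 and 0.265 on day 2, 0.482 and 0.316 on day 4, 0.473 and 0.4400 on day 6, then 0.891 and 0.4997 on day 8. Knockdown libraries read 0.359 and 0.274 RPM on day 0, 0.174 and 0.206 on day 2, 0.164 and 0.464 on day 4, 0.235 and 0.503 on day 6, then 0.384 and 0.362 on day 8. The change of -0.15 (SE 0.0509, adjusted p = 0.0416, limma) ended in 15 of 29 alternatives, with adjusted p up to 0.150. Hoxb13 met the minimum through scrambled libraries alone, so its call adds no support. Of the other tested genes Hoxa4 was at -0.41 (SE 0.193, adjusted p = 0.123) and Hoxc9 at -0.16 (SE 0.0785, adjusted p = 0.154), neither called by limma. Voom on recovered reads with the replicate block called Hoxa4 (-0.71, adjusted p = 0.0235). The highest of the rest were Hoxa2 at 0.13 (SE 0.0899) and Hoxb6 at 0.12 (SE 0.0892), also not called.

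**Figure D3:**
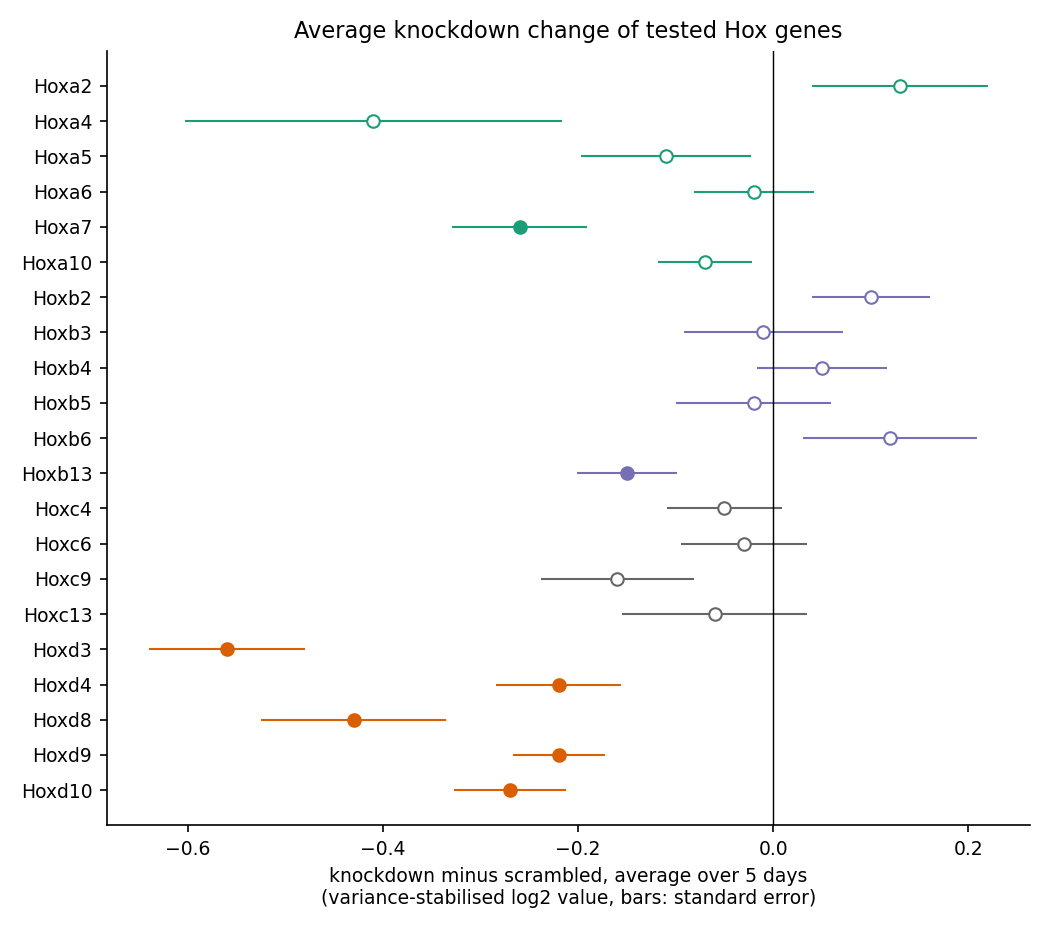
Average difference, knockdown minus scrambled over 5 days, in variance-stabilised log2 values (x axis, bars are the standard error) for 21 tested Hox genes (y axis), coloured by cluster. Filled points passed the limma test at an adjusted p of 0.05, and all 5 Hoxd genes lie between -0.56 and -0.22. Hoxd10 and Hoxb13 met the minimum through scrambled libraries alone, so their calls add no support.

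Single days gave fewer calls. At days 0, 2 and 4 limma called 0 of the 22, where 0.224%, 0.267% and 1.61% of all genes were called. Limma voom on recovered reads also called 0. An unadjusted limma p below 0.05 was reached by 4, 2 and 1 of the 22. The shares above are for adjusted calls, so they are no background for these unadjusted counts. At day 0 the count includes Hoxd10, which met the minimum through scrambled libraries alone. At day 6 Hoxd3 was the 1 gene called (background 4.12%), at -0.79 (SE 0.149, adjusted p = 0.0119). At day 8 Hoxd3 at -0.87 (SE 0.149, adjusted p = 0.00642) and Hoxd4 at -0.59 (SE 0.112, adjusted p = 0.00993) were called, where 5.75% of all genes were. With the replicate block 2 were called at day 6, adding Hoxd8 (-0.51, adjusted p = 0.0201), and 4 at day 8, Hoxd8 among them (-0.62, adjusted p = 0.0105). The shares above are from the fit without the block.

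Each of these day calls leans on a shared spread and on single libraries. Fitted on 1 table alone, limma gave Hoxd3 an adjusted p of 0.204 at day 6 and 0.383 at day 8, and Hoxd4 0.474 at day 8. Without knockdown library 1 of day 6 Hoxd3 had an adjusted p of 0.108, and without library 2 it had 0.0729. At day 8, leaving out scrambled library 2 gave 0.0668 for Hoxd3 and 0.0586 for Hoxd4, and leaving out knockdown library 1 gave 0.0555 and 0.0874. Without scrambled library 1 of day 8 limma called 6, among them Hoxa4 (-1.58, adjusted p = 0.0156), Hoxa7 (-0.54, adjusted p = 0.0469) and, upward, Hoxc13 (0.61, adjusted p = 0.0238). In the authors' deposited table, Hoxd3 was the 1 tested Hox gene with an adjusted p below 0.05, at -0.85 (0.0324) at day 6 and -0.91 (0.0356) at day 8.

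Hoxa4 differed between the libraries of 1 group more than between hairpins. In scrambled cells it was at 2.43 and 2.83 RPM on day 0, 1.98 and 2.24 on day 2, 2.86 and 7.36 on day 4, 4.43 and 11.9 on day 6, then 3.18 and 11.99 on day 8. With the Tcf7l2 hairpin it gave 2.23 and 3.49 RPM on day 0, 1.5 and 2.17 on day 2, 2.01 and 3.59 on day 4, 2.96 and 4.02 on day 6, then 2.83 and 3.26 on day 8. Library 2 of scrambled days 4, 6 and 8 stood at 7.36, 11.88 and 11.99 RPM, against 2.86, 4.43 and 3.18 in library 1, and the same libraries held more Adipoq than library 1 (907, 2255 and 3307 RPM against 282, 1481 and 900). The part of adipocyte content in the Hoxa4 level was not tested.

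The change of the knockdown effect from day 0 to day 8 was tested on recovered reads with limma voom and called 0 of the 22 Hox genes, and 0 of all genes. An unadjusted p below 0.05 was reached by 1 Hox gene, Hoxb3 (1.38, SE 0.546, adjusted p = 0.835), and by 765 of all genes. For Hoxd4 it was -0.84 (SE 0.392, adjusted p = 0.835) and for Hoxd3 -0.40 (SE 0.266, adjusted p = 0.835). These do not show that the effects were alike.

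From day 0 to day 2 few Hox genes passed the test in either arm, and those that did were lower. Here changes are on recovered reads, scaled together over the 20 libraries, with limma voom. In scrambled cells 4 of 22 were called, all lower, where 24.6% of all genes were called and 13.4% were called lower. The sign was negative for 21 of the 22, with a median of -0.63 against 0.02 for all genes. Preadipocyte and fibroblast markers moved with this: their summed level went from 19634 to 32605 RPM at day 0 to 7004 to 8297 at day 2 in scrambled cells, and from 19626 to 27817 to 9458 to 11557 in knockdown cells. Of the 7 markers 4 were called lower and 1 higher in scrambled cells, with a median of -1.57, and their part in the Hox values was not tested. In knockdown cells 3 were called, all lower, where 15.3% of all genes were called and 8.60% were called lower, and the sign was negative for 20 of 22. For day 2 or day 8 against day 0, the replicate block joined libraries of the same number across days within an arm. The labels do not give that link, and it was not checked. With this block 7 were called in scrambled cells, adding Hoxc6, Hoxc9 and Hoxd10, and 6 in knockdown cells, adding Hoxc6, Hoxa2 and Hoxc9. The shares of all genes above are from the fits without the block, so they are no background for these counts.

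Hoxc13, which marks posterior tissue and hair follicles, had the largest fall among the called genes. Its scrambled level was 8.68 and 5.79 RPM on day 0, 1.93 and 1.82 on day 2, 2.92 and 2.05 on day 4, 3.48 and 2.57 on day 6, then 4.49 and 1.599 on day 8. Its knockdown level was 5.94 and 5.24 RPM on day 0, 0.628 and 0.894 on day 2, 2.58 and 2.72 on day 4, 3.24 and 3.05 on day 6, then 3.12 and 4.11 on day 8. In both arms every day 2 library lay below every day 0 library. The share of all genes with such a separation between days was not counted. From day 0 to day 2 it changed by -1.79 in scrambled (SE 0.353, adjusted p = 0.00297, limma voom) and -2.73 in knockdown cells (SE 0.432, adjusted p = 9.93e-04), and both calls held in all 26 alternatives.

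Hoxa7 fell at day 2 by 1.11 in scrambled (SE 0.207, adjusted p = 0.00202, limma voom) and by 1.16 in knockdown cells (SE 0.223, adjusted p = 0.00344), with both calls kept in all 26 alternatives. Hoxd9 fell by 0.57 (SE 0.151, adjusted p = 0.0153) and by 0.68 (SE 0.160, adjusted p = 0.0112). In scrambled cells the Hoxd9 call ended without library 1 of day 0 (adjusted p = 0.0843) or of day 2 (0.116). In knockdown cells it ended without library 1 of day 0 (0.0843) or either library of day 2 (0.0988 and 0.0509). Hoxa6 was called in scrambled cells only, at -0.69 (SE 0.224, adjusted p = 0.0374), and in knockdown cells it was at -0.36 (adjusted p = 0.310); the difference was not tested.

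Hoxa6, a neighbour of Hoxa7, was at 7.69 and 7.47 RPM on day 0, 5.16 and 3.83 on day 2, 5.37 and 3.505 on day 4, 7.87 and 5.02 on day 6, then 6.35 and 4.73 on day 8 in scrambled cells. The knockdown values were 6.18 and 7.36 RPM on day 0, 4.71 and 4.85 on day 2, 5.04 and 4.82 on day 4, 5.49 and 5.95 on day 6, then 5.85 and 5.31 on day 8. Its scrambled call ended in 10 of 26 alternatives, with an adjusted p of up to 0.314, reached without scrambled library 2 of day 2. Hoxd8 had the 1 positive value at day 2 in scrambled cells, 0.06 (SE 0.248, adjusted p = 0.894).

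From day 0 to day 8 the scrambled cells gave 1 call, Hoxc13 at -1.33 (SE 0.333, adjusted p = 0.0254, limma voom), where 10.5% of all genes were called. That call ended without scrambled library 1 of day 0 (-1.08, adjusted p = 0.150) or library 2 of day 8 (-0.65, adjusted p = 0.342). With the replicate block 6 were called, among them Hoxa2 (-0.74, adjusted p = 0.00425), Hoxa4 (1.34, adjusted p = 0.0184), Hoxb3 (-0.95, adjusted p = 0.0372) and Hoxd4 (0.71, adjusted p = 0.0416). The share of 10.5% is from the fit without the block. The knockdown cells gave 0 calls (0.673% of all genes), and 0 of the 22 had an unadjusted p below 0.05. Limma with a trend on log2(RPM + 1) also gave 0 there.

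**Figure D4:**
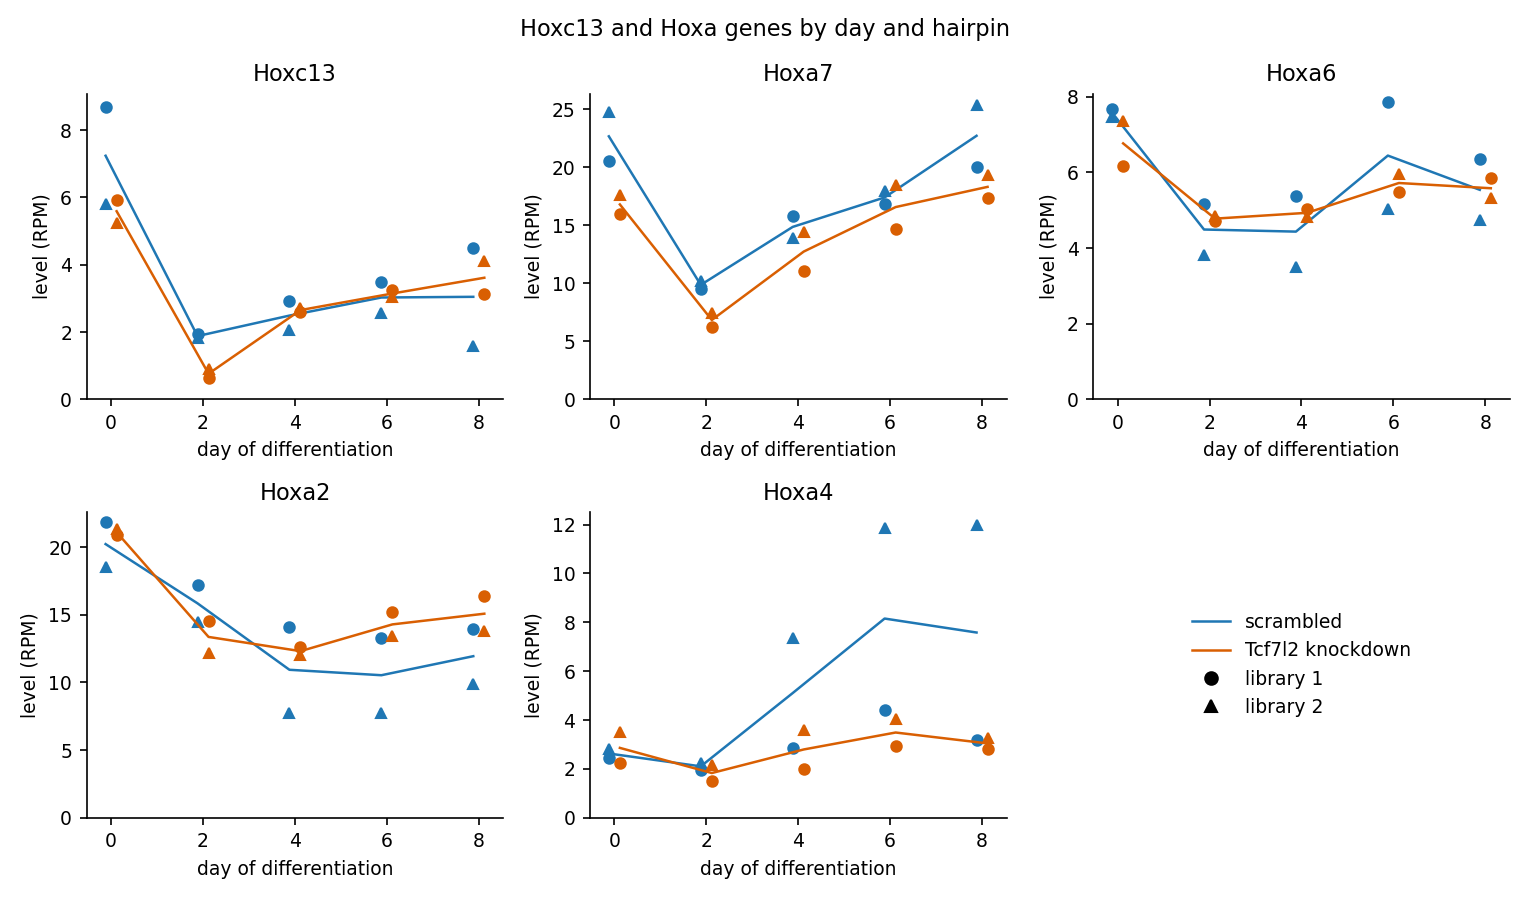
Levels in RPM (y axis, from 0) of Hoxc13, Hoxa7, Hoxa6, Hoxa2 and Hoxa4 by day (x axis), in scrambled (blue) and Tcf7l2 knockdown (orange) cells, each library as a point and the mean of 2 as a line. Hoxc13 falls from 5.24 to 8.68 RPM at day 0 to 0.628 to 1.93 RPM at day 2, and Hoxa4 is high in scrambled library 2 of days 4, 6 and 8.

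Values of the other most abundant members of each cluster complete the picture. Hoxa2, a 3' gene that patterns the hindbrain, was at 21.9 and 18.6 RPM on day 0, 17.2 and 14.5 on day 2, 14.1 and 7.77 on day 4, 13.3 and 7.77 on day 6, then 13.98 and 9.89 on day 8 in scrambled cells. Under knockdown it stood at 20.9 and 21.3 RPM on day 0, 14.5 and 12.2 on day 2, 12.6 and 12 on day 4, 15.2 and 13.4 on day 6, then 16.4 and 13.8 on day 8. It was highest at day 0 in both arms. Hoxb4 was at 5.36 and 4.73 RPM on day 0, 3.91 and 4.297 on day 2, 4.44 and 5.21 on day 4, 4.99 and 5.21 on day 6, then 4.41 and 6.33 on day 8 in scrambled cells. Knockdown cells held 6.14 and 6.78 RPM on day 0, 4.74 and 5.67 on day 2, 4.51 and 5.19 on day 4, 4.88 and 5.33 on day 6, then 4.27 and 5.62 on day 8, so that its range over the 20 libraries was 3.91 to 6.78 RPM.

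Hoxb3, whose exons overlap an antisense gene, was at 2.43 and 2.61 RPM on day 0, 1.68 and 1.12 on day 2, 1.14 and 0.916 on day 4, 1.89 and 0.9900 on day 6, then 1.704 and 0.966 on day 8 in scrambled cells. Knockdown libraries read 0.956 and 2.29 RPM on day 0, 1.01 and 1.07 on day 2, 0.8196 and 1.36 on day 4, 1.41 and 1.72 on day 6, then 2.06 and 2.02 on day 8. Both scrambled libraries of day 0 were higher than those of the later days, and the share of all genes that showed this was not counted. Hoxc6 was at 1.59 and 1.25 RPM on day 0, 0.602 and 0.589 on day 2, 0.894 and 0.379 on day 4, 1.16 and 0.623 on day 6, then 2.01 and 0.7996 on day 8 in scrambled cells. With the Tcf7l2 hairpin it gave 1.16 and 1.199 RPM on day 0, 0.558 and 0.5501 on day 2, 0.861 and 0.618 on day 4, 0.986 and 0.799 on day 6, then 1.103 and 1.24 on day 8, lowest at day 2 in both libraries.

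The proteins that work with Hox factors, and those that keep their clusters open or silent, were read as lists in the average knockdown effect, where 25.4% of all genes were called. Of the 9 TALE cofactors, homeodomain partners that bind DNA with Hox proteins, 3 rose and 2 fell. Pbx4 rose by 0.33 (SE 0.0483, adjusted p = 1.32e-04), Meis1 by 0.43 (adjusted p = 0.0180) and Pknox1 by 0.20 (adjusted p = 0.0219). Pbx4 was low, at a mean of 0.813 RPM in scrambled and 1.55 RPM in knockdown cells. Pbx2 was at -0.22 (adjusted p = 0.0348), a call that ended in 16 alternatives.

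Polycomb genes, which keep Hox genes silent, gave 1 higher and 5 lower of 24. Jarid2 changed by -0.44 (adjusted p = 0.0118), Pcgf3 by -0.15 (0.00989) and Rnf2 by -0.17 (0.0192), and Phc2 by 0.23 (0.0211). Trithorax genes and H3K27 demethylases gave 1 higher, Psip1 at 0.30 (adjusted p = 0.00313), and 3 lower of 12, Rbbp5 at -0.20 (0.00164), Wbp7 (now Kmt2b) at -0.16 (0.00337) and Dot1l at -0.55 (0.0228). The medians of these lists were -0.03 and 0.02, against -0.00 for all genes.

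Retinoic acid and Cdx genes, upstream regulators of Hox expression in embryos, gave 3 higher and 2 lower of 7 tested. Rara was at -0.28 (adjusted p = 0.0157) and Rarg at 0.28 (adjusted p = 0.0261), both retinoic acid receptors. The Rarg call ended in 5 alternatives and that of Crabp2 (0.19, adjusted p = 0.0336) in 9. Crabp2 was low, at a mean of 0.479 RPM in scrambled and 0.737 RPM in knockdown cells. Other positional factors of mesenchyme gave 1 higher, Emx2 at 0.80 (adjusted p = 4.91e-06), and 2 lower, Lhx9 at -0.37 (1.26e-04) and Tbx3 at -0.23 (0.00645), of 16. Lhx9 was low, at a mean of 0.814 RPM in scrambled and 0.276 RPM in knockdown cells. Whether 1 arm alone carried it past the minimum was not checked. A list of 11 genes beside or within the clusters gave 0 calls by limma and 0 by limma voom. It does not hold every gene there and lacks the called transcript 6720416L17Rik. Of the 11, 2 had an unadjusted limma p below 0.05, and no share of all genes is given for that measure. The 11 include Mtx2, next to the Hoxd cluster, at -0.38 (SE 0.162, adjusted p = 0.0955, limma). They also include the antisense gene 1700109F18Rik (Hoxd3os1) at -0.14 (adjusted p = 0.128, limma).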

How the data were processed

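Libraries were made with a TruSeq kit, per the labels. The submitters' processing notes name the mm9 build, TopHat2 2.0.13, Bowtie2 2.2.3.0, SAMtools and DESeq2 1.10.1. The read counter and its gene models are not given in the sources used here. Deposited tables, 1 per day and normalised apart from each other, give variance-stabilised log2 values per library. They also hold deposited columns for the mean signal of a gene (its mean normalised count), the log2 fold change and its error, a test score, and raw and adjusted p-values.

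The transformation was inverted to give reads: 100% of low values, checked up to 100 reads, lay within 0.02 of a whole number. RPM are these reads scaled to the library total, and RPKM divide them by GENCODE vM21 exon lengths (37 members matched by ID, 1 by symbol). A median-of-ratios scaling over all libraries was used for the time course and the change of effect (limma voom). For knockdown effects, limma 3.58.1 under R 4.3.3 with statmod 1.5.0 was run with trend and robust estimation on the log2 values: 1 mean per group (10 residual degrees of freedom), or, for the average, day as a factor (14). The minimum was a mean normalised count of 10 in any table (16497 genes), with Benjamini-Hochberg adjustment at 0.05. The average treats the 10 libraries of an arm as independent, yet all may stem from 1 selected population. Scripts were tested on simulated data. Every Hox gene was counted; those called in any comparison, and the 2 of each cluster with the highest mean RPM, are given for every library, and of each list up to 4 genes with the smallest adjusted p. Other libraries and genes named, Hoxa4 and 6720416L17Rik among them, were chosen after their values were seen. Some genes are counted but not reported here by name. The members and lists were chosen with earlier results of these data known.

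Library numbers 1 and 2 occur under both hairpins. Across genes, libraries with the same number deviated together (correlations of 0.78, 0.70, 0.55, 0.54 and 0.47 for days 0 to 8), so the pairing comes from these data and not from the labels. These correlations are between hairpins within a day. For day 2 or day 8 against day 0, the block instead joined the same number across days within an arm, which was not checked. The libraries of a group had Spearman correlations of 0.963 to 0.993, and none were copies. The alternatives comprised all genes with a read, a minimum of 50 (13606 genes), median centring, quantile normalization, plain limma, the replicate block, limma voom, other scalings, a fit per table and omission of each library. Fits omitting both scrambled libraries of day 8, fits omitting library 2 on days 4, 6 and 8, and voom with the block were added after the data were seen.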

Additional observations from a re-analysis of the deposited data

How the results depend on the processing

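No called change of Tcf7l2, a Hox gene or a named list gene reversed its sign under any alternative run. Other changes, among them those not called, were not checked for this. The average call of 7 Hox genes became 4 with a filter at a mean normalised count of 50, which removes genes from the test, and at day 8 the 2 calls became 1 with that filter. With the replicate block the calls were 2 at day 6, 4 at day 8, 7 in scrambled cells at day 2, 6 in scrambled cells at day 8 and 6 in knockdown cells at day 2; the block changed no other count by more than 1.5 times. Voom on recovered reads with the replicate block gave 2 at day 6 and 4 at day 8. Shares of all genes called are given for fits without the block only, so the counts with it have no background here. A separate fit per table gave 0 at days 6 and 8. Omitting library 2 of days 4, 6 and 8, day 8 gave 1 call and scrambled day 8 against day 0 gave 0; limma with trend on log2(RPM + 1) gave 2 for the latter. Leaving out 1 library gave 0 to 1 calls at day 6, 0 to 6 at day 8, 6 to 8 for the average, 2 to 5 in scrambled cells at day 2, 0 to 4 in scrambled cells at day 8 and 2 to 3 in knockdown cells at day 2. The cause of these moves was not tested where the alternative does not itself drop genes or libraries, and the lone library left in a group is assumed to vary like the other groups. Low genes such as Hoxd10 rest on few reads, and depth limits them.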

Other observations

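Inside the clusters, 9 genes that are not Hox genes were tested (a pseudogene left out), and limma called 1 in the average knockdown effect. Of all genes tested 25.4% were called in that effect, so the count does not exceed the background. It was 6720416L17Rik (Haglr), a transcript that starts in the Hoxd cluster on the minus strand and overlaps no exon of a Hox gene in GENCODE vM21. In scrambled libraries 1 and 2 it was at 1.94 and 2.18 RPM at day 0, 1.42 and 1.30 at day 2, 1.34 and 1.55 at day 4, 2.84 and 1.72 at day 6, and 2.94 and 2.77 at day 8. In knockdown libraries it was at 1.04 and 1.51, 1.22 and 1.31, 1.31 and 1.11, 1.36 and 1.63, and 1.15 and 0.997 RPM on those days. The groups did not overlap at days 0, 4, 6 and 8 (8.46% of all genes tested were lower without overlap on at least 4 days). Its average change was -0.29 (SE 0.0758, adjusted p = 0.0105, limma), called in 28 of 30 alternatives with an adjusted p up to 0.0542. At day 8 the change was -0.76 (SE 0.111, adjusted p = 0.00287), called in 28 of 30 alternatives with an adjusted p up to 0.368. The gene was chosen after its values were seen.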
